A study of Mus musculus with 21 samples.

Results

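Transcripts of 8 core hepatocyte transcription factors, Hnf4a, Foxa1, Foxa2, Foxa3, Onecut1, Onecut2, Prox1 and Gata4, were followed through the conversion of mouse hepatocytes into cultured progenitor-like cells and through hepatic induction of those cells. The 8 genes were taken by their names in the array files, out of 37074 gene names, and were covered by 12 probes. The study profiled 7 groups of 3 arrays, all from female C57BL/6 mice with no transgene or deletion named in the labels. The fresh group held freshly isolated hepatocytes. The 6 other groups held CLiPs (chemically induced liver progenitors), the cells that grow out when hepatocytes are cultured with small molecules, at passage 1 (P1) or at passages 11 to 12 (late). At each passage the CLiPs were sampled before induction (day 0) and after 8 days with oncostatin M and dexamethasone (induced) or without them (uninduced). Oncostatin M is a cytokine of the interleukin-6 family and dexamethasone a synthetic glucocorticoid. They were given together, so their effects cannot be told apart.

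HNF4A is a nuclear receptor that binds DNA as a homodimer and sits at the centre of a network in which the liver factors activate one another's genes. FOXA proteins are winged-helix pioneer factors that open chromatin ahead of other factors, the ONECUT factors (HNF6 and OC-2) carry a cut domain and a homeodomain, PROX1 is a homeodomain factor that also acts as a corepressor of HNF4A, and GATA4 is a zinc finger factor of early liver development. In the developing liver ONECUT factors are present in both hepatoblasts and biliary cells, whereas HNF4A and PROX1 mark the hepatocyte lineage.

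The stretches just before the transcription starts of 4 factors are shown because these genes followed several courses in the arrays. Hnf4a fell on conversion and, like Foxa3, rose on P1 induction. Onecut1 swung with the culture phase and Foxa2 stayed nearly level at P1. They are RefSeq sequences on GRCm38.p6, 5′ to 3′ on the gene's strand (plus for Hnf4a and Onecut1, minus for Foxa2 and Foxa3). Capitals mark matches, on either strand, to short letter strings that these factor families are known to bind: GTTAAT stands for HNF1 factors and CAAAGTCC for HNF4A. The string searched for FOXA factors was TGTTTAC, the one for ONECUT factors was ATCAAT, and that for GATA factors was AGATAA.
Hnf4a upstream start, chr2:163506607-163506810: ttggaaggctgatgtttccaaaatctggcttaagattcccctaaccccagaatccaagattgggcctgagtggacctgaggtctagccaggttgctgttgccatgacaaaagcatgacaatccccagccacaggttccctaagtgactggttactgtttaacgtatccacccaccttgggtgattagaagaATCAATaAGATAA
Hnf4a downstream start, chr2:163546905-163547154: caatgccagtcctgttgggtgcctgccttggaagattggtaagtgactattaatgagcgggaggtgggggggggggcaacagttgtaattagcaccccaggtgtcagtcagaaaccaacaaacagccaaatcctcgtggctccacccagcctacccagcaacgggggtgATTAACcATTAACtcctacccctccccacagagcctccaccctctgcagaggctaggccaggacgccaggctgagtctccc
Foxa2, chr2:148046970-148047219: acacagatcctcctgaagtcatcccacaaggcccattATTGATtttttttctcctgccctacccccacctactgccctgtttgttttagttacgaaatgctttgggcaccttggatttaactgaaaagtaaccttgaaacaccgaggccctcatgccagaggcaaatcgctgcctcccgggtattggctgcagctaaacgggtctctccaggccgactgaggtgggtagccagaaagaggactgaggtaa
Foxa3, chr7:19023540-19023789: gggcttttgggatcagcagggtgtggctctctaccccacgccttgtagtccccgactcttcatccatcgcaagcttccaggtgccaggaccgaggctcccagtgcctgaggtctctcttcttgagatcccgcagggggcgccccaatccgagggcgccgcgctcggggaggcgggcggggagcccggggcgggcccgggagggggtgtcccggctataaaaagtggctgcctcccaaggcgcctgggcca
Onecut1, chr9:74861671-74861920: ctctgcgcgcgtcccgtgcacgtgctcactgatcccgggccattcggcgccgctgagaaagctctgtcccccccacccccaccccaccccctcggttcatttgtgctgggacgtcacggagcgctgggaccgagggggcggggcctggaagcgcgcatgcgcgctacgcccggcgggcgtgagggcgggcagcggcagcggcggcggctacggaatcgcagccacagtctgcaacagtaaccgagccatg
The Hnf4a upstream stretch held 1 ONECUT match and 1 GATA match, and the downstream stretch held 2 HNF1 matches, the first of them 81 to 76 and the other 74 to 69 bases before the start. Foxa2 had 1 ONECUT match, and the stretches of Foxa3, Onecut1 and Prox1 (not printed) had none of the 5. Among the 250 bases before 32851 RefSeq starts, 6.43% held the HNF1 letters, 1.2% the HNF4 letters, 3.17% the FOXA letters, 6.72% the ONECUT letters and 9.99% the GATA letters. The ONECUT match (59 to 54 bases before the start) and the GATA match (52 to 47) do not overlap, and a match describes the sequence and is not a measured site. Hnf4a's upstream stretch was searched over 204 bases, since another annotated start lies within the window. Promoter entries matched 6 of the 8 genes, of which that of Foxa1 was not used, and Gata4 and Onecut2 are named only.

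For Hnf4a and Onecut1 a probe lies in the coding region and is printed in full, since these probes gave a separate reading of both genes. The Hnf4a probe falls in the exons of the DNA-binding domain, at base 413 of the transcript, and the Onecut1 probe in the homeodomain exon, at base 1640 (mm9, plus strand, both read 5′ to 3′).
Hnf4a coding probe, chr2:163378302-163378361: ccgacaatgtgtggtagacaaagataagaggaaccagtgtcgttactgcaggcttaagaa
Onecut1 coding probe, chr9:74737272-74737331: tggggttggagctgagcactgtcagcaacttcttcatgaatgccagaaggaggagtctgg

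A level is the log2 processed signal of a gene's brightest probe minus the 75th percentile of its array, so a level of 0 is a signal equal to that percentile. Fresh and P1 arrays were read on 1 scanner and late arrays on another with a different version of the software, so in any difference between late and the other groups the scanner and the passage cannot be told apart. Fresh arrays lay on slides 1, 2 and 3 and P1 arrays on slides 4 and 5. In any difference between fresh and P1 groups the slide and the conversion therefore cannot be told apart. The labels do not say whether the 3 samples of a group are separate cultures or animals, so a p-value here covers the spread among 3 such samples, which may be technical. Late replicates 1 and 2 were passage 12 and replicate 3 was passage 11. A gene is said to have risen or fallen where the adjusted p of limma (Benjamini-Hochberg over all genes tested) was under 0.05 and the change at least 2-fold. Fresh arrays were the dimmest, with 75th percentile signals of 291 to 332, followed by P1 arrays (466 to 789) and the late ones (881 to 1241). No spot was saturated. The share of probes well above background ran between 46.1% and 60.5%. The fresh arrays matched their label: 9 of 9 hepatocyte markers on the array were well above background, at a mean level of 8.47 to 8.65. The same 9 genes had a mean level of 3.34 to 3.94 at P1 day 0, 6.05 to 6.48 in P1 induced, -0.69 to 0.74 at late day 0 and 1.73 to 4.17 in late induced CLiPs.

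Conversion to P1 CLiPs lowered Hnf4a, Prox1 and Gata4 and left the other 5 factors without a call. Prox1 differed by -1.94 ± 0.17 on the log2 scale (SE, 3 arrays against 3), Gata4 by -2.22 ± 0.273 and Hnf4a by -1.31 ± 0.163. Of all genes tested, 50.6% were called in this comparison, 25.4% higher and 25.2% lower, against 0 and 3 of the 8 factors. The median difference of the 8 factors was -0.96 beside -0.01 over all genes tested. Culture for 8 days without inducers at P1 raised Onecut2 and lowered Gata4, 2 of 8 factors where 11.1% of all genes were called (6.28% higher, 4.87% lower). Induction at P1 raised Hnf4a and Foxa3, again 2 of 8, where 18.7% of all genes were called (9.68% higher, 9.01% lower). After induction, Prox1 and Gata4 were still below fresh hepatocytes, with 39.1% of all genes called between P1 induced and fresh (20.3% higher, 18.8% lower).

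At late passage, 8 days without inducers raised 4 of the 8 factors, Onecut1, Prox1, Onecut2 and Foxa3, where 14.5% of all genes were called (8.18% higher, 6.37% lower). The median difference of the 8 factors was 0.88 beside -0.02 over all genes tested. Late induction then raised Prox1 alone, 1 of 8 factors where 5.99% of all genes were called (2.94% higher, 3.06% lower). Set across the scanners, 6 of the 8 factors were lower at late day 0 than at P1 day 0, with 13.4% of all genes called (4.33% higher, 9.1% lower), and none was higher. The count was 4 with the slide as a block, where Hnf4a (-0.88, limma adjusted p = 0.1) and Gata4 (-0.98, adjusted p = 0.286) lost their calls. It was also 4 without late day-0 replicate 1 (Hnf4a at -0.99, Gata4 at -0.98), and Gata4 lost its call without P1 day-0 replicate 3 (-1.02). The factors with no call between the day-0 groups were Foxa2 and Onecut2, at 0.24 ± 0.104 and 0.27 ± 0.193. The same 6 were lower at late day 0 than in fresh hepatocytes, where 54.7% of all genes were called (25.7% higher, 29.1% lower). Foxa3 differed most in that comparison, by -6.39 ± 0.484, and Prox1 next, by -4.77 ± 0.253. The size for Foxa3 depended on the background correction. With normexp its mean levels were 1.51 in fresh and -3.23 at late day 0, a smaller difference. Of the differences between the passages, the induction effect was called for 0 of 8 factors (limma; 2 had an unadjusted p under 0.05) and for 9.93% of all genes (4.73% higher, 5.21% lower). The 8-day change without inducers differed for 2 of 8 factors and for 2.85% of all genes (1.74% higher, 1.11% lower).

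**Figure D1:**
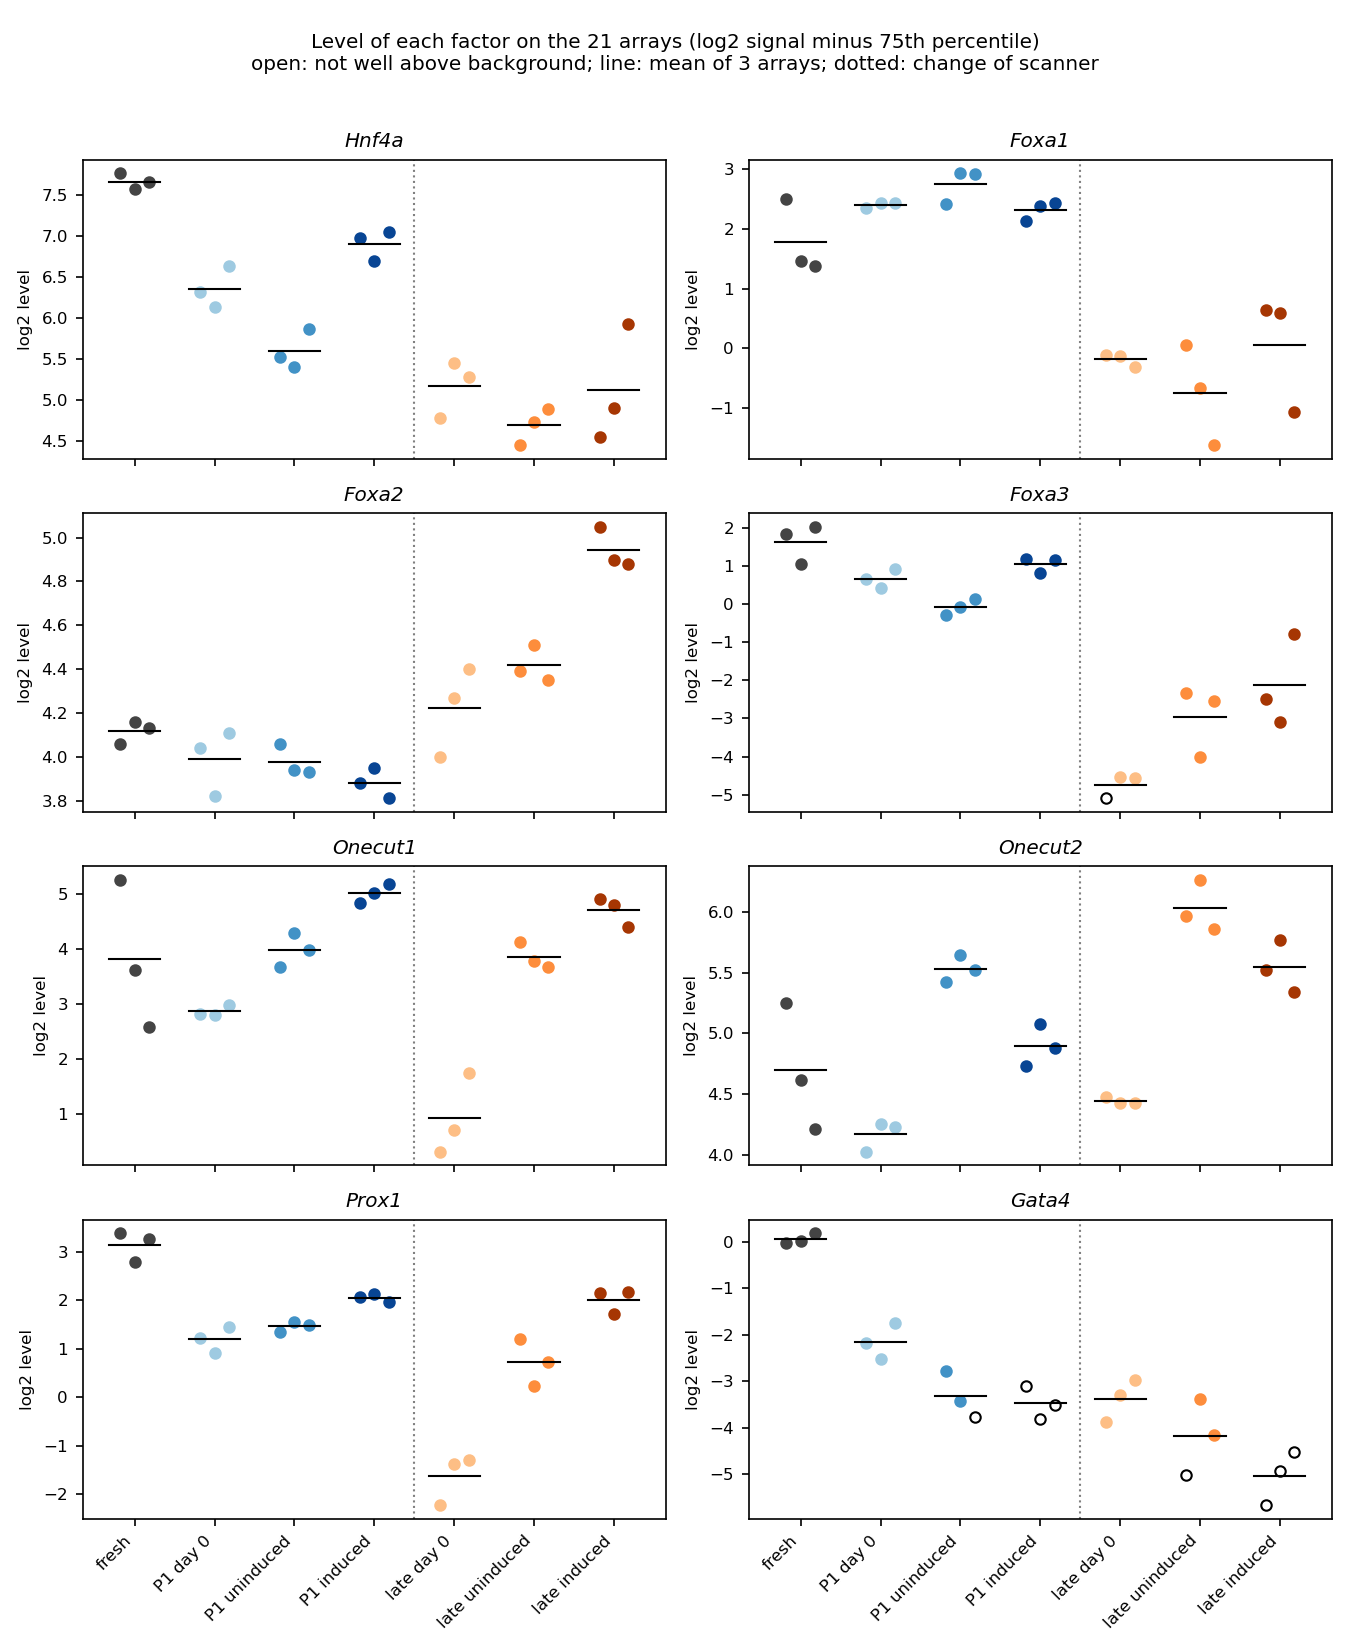
Level of each of the 8 factors on every array, by group (log2 processed signal minus the array's 75th percentile; 3 points per group, lines are means, open points are not well above background). Fresh hepatocytes are highest for Hnf4a, Foxa3, Prox1 and Gata4, Onecut1 and Onecut2 climb from day 0 to the uninduced cultures at both passages, and Foxa2 stays between 3.81 and 4.16 on the 12 fresh and P1 arrays.

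Hnf4a was at 7.76, 7.57 and 7.65 on the 3 fresh arrays and at 6.31, 6.13 and 6.63 on the P1 day-0 arrays. P1 uninduced CLiPs gave 5.52, 5.40 and 5.87, and P1 induced CLiPs gave 6.97, 6.69 and 7.05. No 2 of these 4 groups overlapped, and the order was fresh, P1 induced, P1 day 0, P1 uninduced. Induction at P1 thus raised Hnf4a by 1.31 ± 0.163 (2.47-fold, adjusted p = 8.5e-05 by limma), and the induced arrays remained 0.76 ± 0.163 below fresh, a difference under 2-fold (limma adjusted p = 0.0016). The drop from day 0 to uninduced was 0.76 ± 0.163 in size and was also under 2-fold (limma adjusted p = 0.0046).

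The fall of Hnf4a from fresh to P1 day 0 was 2.47-fold (limma adjusted p = 2.3e-05), and its size depended on the scaling. The unscaled processed signals were 55500 to 72000 on fresh and 55400 to 66500 on P1 day-0 arrays, while the 75th percentile of the arrays went from 291 to 332 up to 672 to 789. With quantile normalization the difference was -0.76 (limma adjusted p = 0.000489) and no longer reached 2-fold, and the rise on P1 induction was 0.96 (adjusted p = 0.000285). The coding probe printed above moved in parallel with the brighter probe, by -1.41 from fresh to P1 day 0 and by 1.33 on P1 induction. With quantile normalization its means were 0.43 in fresh, -0.97 at P1 day 0, -1.6 in P1 uninduced and -0.19 in P1 induced cells. On that probe both steps thus stayed over 2-fold, though no test was run on it. Within the slides that held both P1 induced and P1 uninduced arrays, the induction difference of Hnf4a was 1.52 on slide 4 and 0.99 on slide 5.

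Late CLiPs had Hnf4a at 4.78, 5.45 and 5.28 at day 0, at 4.45, 4.73 and 4.89 without inducers and at 4.55, 4.90 and 5.93 with them. The late groups overlapped, and induction gave 0.44 ± 0.341 (limma adjusted p = 0.42, 95% interval -0.35 to 1.22). Replicate 3, the passage 11 sample, was 1.04 higher with inducers than without, against 0.10 and 0.17 for the passage 12 samples. The induction difference was smaller at late passage than at P1 by 0.87 ± 0.383, which did not pass (limma adjusted p = 0.13). Without late induced replicate 3 that difference was -1.27 (limma adjusted p = 0.00451), and with the slide as a block -1.19 (adjusted p = 0.00651), both past the threshold. Late induced replicate 3 lay on a slide apart from the other late arrays, so its passage and its slide cannot be told apart. The slide block thus also set this array aside, and these settings are not separate checks. The coding probe of Hnf4a gave a late difference of 0.31 and a difference between the passages of -1.02.

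**Figure D2:**
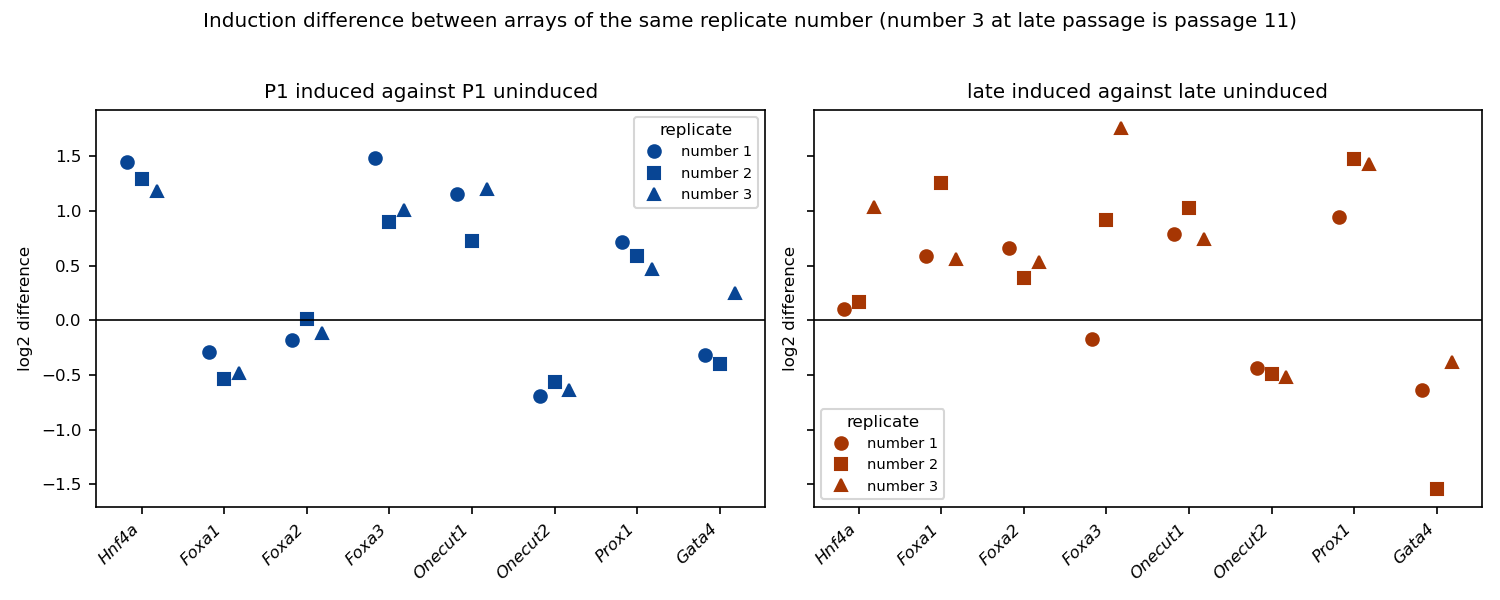
Induced minus uninduced level (log2) of each factor for arrays of the same replicate number, at P1 (left) and late passage (right). The 3 P1 values of Hnf4a lie between 1.18 and 1.45, while late numbers 1 and 2 are at 0.10 and 0.17 and number 3, the passage 11 sample, at 1.04.

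Foxa2 was the most even of the 3 FOXA genes at P1. It read 4.06, 4.16 and 4.13 on fresh arrays, 4.04, 3.82 and 4.11 at P1 day 0, 4.06, 3.94 and 3.93 in P1 uninduced and 3.88, 3.95 and 3.81 in P1 induced CLiPs. Conversion changed it by -0.13 (95% interval -0.34 to 0.09), P1 culture without inducers by -0.01 (-0.23 to 0.20) and P1 induction by -0.10 (-0.31 to 0.12), each interval within a 2-fold change in either direction. Quantile normalization turned the sign of the first of these (0.23), of the second (0.16) and of the difference between P1 induced and fresh (0.10 in place of -0.24).

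At late passage Foxa2 read 4.0, 4.27 and 4.40 at day 0, 4.39, 4.51 and 4.35 uninduced and 5.05, 4.90 and 4.88 induced. The late induced arrays lay above all other 18 arrays. Late induction gave 0.52 ± 0.116 (limma adjusted p = 0.018), under 2-fold, and was higher than P1 induction by 0.62 ± 0.146 (limma adjusted p = 0.0067), also under 2-fold. Late induced CLiPs exceeded P1 induced CLiPs by 1.06 ± 0.104 (2.09-fold, limma adjusted p = 5.2e-07), the single factor higher across the scanners there. Hnf4a, Foxa1 and Foxa3 were lower in late induced than in P1 induced CLiPs. Gata4 was not well above background on any array of either group, so its call there compares background readings, and it was lost with normexp (-0.88). In this comparison 21.9% of all genes were called (8.89% higher, 13% lower).

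Foxa1 was the only one of the 8 whose mean was higher in every P1 group than in fresh hepatocytes, though none of these differences reached 2-fold. It read 2.50, 1.46 and 1.38 on fresh arrays and 2.35, 2.44 and 2.43 at P1 day 0, so that fresh replicate 1 lay above the P1 day-0 arrays and the other two below. The P1 uninduced levels were 2.42, 2.93 and 2.92 and the P1 induced levels 2.13, 2.39 and 2.44. Late levels were lower throughout, at -0.11, -0.13 and -0.31 at day 0, 0.05, -0.66 and -1.62 uninduced, and 0.64, 0.60 and -1.06 induced. Late day 0 was 2.59 ± 0.426 below P1 day 0 (limma adjusted p = 2e-04), with no overlap. Induction moved Foxa1 by -0.44 at P1 and 0.80 at late passage, and neither passed. The difference between the passages was 1.24 ± 0.603 (limma adjusted p = 0.18), 1.80 (adjusted p = 0.0177) without late induced replicate 3 and 1.86 (adjusted p = 0.0192) with the slide as a block. Here too the slide block set late induced replicate 3 aside, so these settings are not separate checks. Replicate 3 was the lowest array for Foxa1 in both 8-day late groups, the reverse of its place for Hnf4a.

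Foxa3, which appears after the other FOXA genes in development, read 1.84, 1.06 and 2.04 on fresh arrays, 0.67, 0.43 and 0.93 at P1 day 0 and -0.29, -0.07 and 0.15 in P1 uninduced CLiPs. P1 induced CLiPs gave 1.20, 0.83 and 1.16, above all P1 uninduced arrays and within the range spanned by P1 day 0 and fresh arrays. The first step, -0.98 ± 0.243 (limma adjusted p = 0.0035), stopped just short of 2-fold, and became -1.27 without fresh replicate 2 and -1.10 without P1 day-0 replicate 3, both called. P1 induction raised Foxa3 by 1.13 ± 0.243 (2.19-fold, limma adjusted p = 0.0033). With normexp background correction the rise was 0.95, and in a fit of all 21 arrays its adjusted p was 0.0692.

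At late day 0 Foxa3 was near the detection limit, at -5.10 (not well above background), -4.55 and -4.57. Culture for 8 days without inducers brought it to -2.33, -4.00 and -2.53 and inducers to -2.50, -3.08 and -0.77. The late uninduced arrays lay above the day-0 arrays, by 1.78 ± 0.63, just past the threshold (limma adjusted p = 0.0497), whereas at P1 the same step had been -0.74 ± 0.243. The difference of these steps was 2.53 ± 0.684 (limma adjusted p rounding to 0.05), and both calls were lost under quantile normalization (1.62 and 2.37) and normexp (0.90 and 1.54). The late rise was also lost without any 1 of late day-0 replicates 1, 2 and 3 (1.60, 1.88 and 1.87) or late uninduced replicates 1 and 3 (1.47 and 1.57). The difference of the steps was lost without any 1 of the 12 arrays it rests on (2.22 to 2.65), except late uninduced replicate 2 (3.05). Late day 0 was 5.41 ± 0.484 below P1 day 0 on the log2 scale, the lowest of the 8 differences (limma adjusted p = 4.6e-07). With normexp the mean levels were 0.63 at P1 day 0 and -3.23 at late day 0, a smaller difference. Late induction gave 0.84 ± 0.63 (limma adjusted p = 0.40), with -0.17, 0.92 and 1.76 for replicates 1, 2 and 3.

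Onecut1 moved with the culture phase. The fresh arrays were spread, at 5.25, 3.62 and 2.58, and the P1 arrays were tight, at 2.82, 2.79 and 2.98 at day 0, 3.67, 4.29 and 3.97 uninduced and 4.83, 5.02 and 5.17 induced. The 3 P1 groups did not overlap and stood in that order. Their steps of 1.11 ± 0.505 and 1.03 ± 0.505 did not pass in the fit that included the fresh arrays (limma adjusted p = 0.11 and 0.12), whose SD was 1.35. In a fit of the 9 P1 arrays alone, chosen after seeing that spread, the same steps had adjusted p of 0.000656 and 0.000675 by limma. On the coding probe the induction step at P1 was 0.48, under 2-fold, and P1 induced lay 0.82 above fresh, also under 2-fold. On the brighter probe P1 induced CLiPs lay 1.19 ± 0.505 above fresh (limma adjusted p = 0.0544), a call gained with quantile normalization (1.45), normexp (1.21), the fit of all 21 arrays (1.19) and without fresh replicate 1 (1.91, adjusted p = 0.000182). P1 day 0 lay -0.95 ± 0.505 from fresh (limma adjusted p = 0.11), and -1.57 without fresh replicate 3 (adjusted p = 0.00402), which was called.

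Onecut1 also rose in late culture without inducers. It read 0.31, 0.70 and 1.74 at late day 0 and 4.12, 3.77 and 3.66 after 8 days without inducers, a rise of 2.93 ± 0.338 (7.63-fold, limma adjusted p = 0.00029), with 4.91, 4.80 and 4.40 after induction. The coding probe rose by less, 2.04, over the same step, and by 1.19 over the P1 step. Induction added 0.86 ± 0.338 at late passage (limma adjusted p = 0.12), with all 3 induced arrays above all 3 uninduced arrays, and the coding probe 0.28. Late day 0 lay 1.95 ± 0.468 below P1 day 0 (limma adjusted p = 0.004), while the coding probe gave -0.78, under 2-fold. Late induced lay -0.30 from P1 induced (95% interval -1.29 to 0.69), with overlapping arrays.

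Onecut2, the paralog of Onecut1, shared the rise in culture but not the direction on induction. It read 5.25, 4.62 and 4.22 on fresh arrays, 4.03, 4.26 and 4.23 at P1 day 0, 5.42, 5.64 and 5.52 in P1 uninduced and 4.73, 5.08 and 4.88 in P1 induced CLiPs. The P1 rise without inducers was 1.35 ± 0.216 (2.55-fold, limma adjusted p = 0.00083), and the induced arrays lay below the uninduced ones by 0.63 ± 0.216, under 2-fold (limma adjusted p = 0.036). Late CLiPs repeated both steps, from 4.48, 4.43 and 4.43 to 5.96, 6.26 and 5.86 (a rise of 1.58 ± 0.138, 2.99-fold, limma adjusted p = 8e-05) and to 5.52, 5.77 and 5.34 with inducers (-0.48 ± 0.138, limma adjusted p = 0.0451). In the 6 pairs of the same replicate number, inducers went with lower Onecut2 each time, by -0.44 to -0.69, and with higher Onecut1 each time, by 0.73 to 1.20. Neither step differed between the passages beyond its error, at 0.15 ± 0.273 for induction and 0.23 ± 0.273 for the uninduced culture (limma adjusted p = 0.78 for each).

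Prox1 fell on conversion and rose in both late steps. It read 3.38, 2.78 and 3.26 on fresh arrays and 1.22, 0.92 and 1.45 at P1 day 0 (limma adjusted p = 1.3e-06, 3.85-fold). P1 uninduced CLiPs were at 1.35, 1.54 and 1.49 and P1 induced CLiPs at 2.07, 2.13 and 1.96, a rise of 0.60 ± 0.17 under 2-fold (limma adjusted p = 0.016) with no overlap. The second probe of Prox1 gave 1.03 for this step, just over 2-fold. P1 induced CLiPs stayed 1.09 ± 0.17 below fresh (limma adjusted p = 0.00018), a gap of 0.86 with quantile normalization, 0.94 with the mean of both probes and 0.97 without fresh replicate 1, each under 2-fold.

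At late day 0 Prox1 was at -2.22, -1.38 and -1.30, lower than on any other array. It reached 1.20, 0.24 and 0.73 without inducers and 2.15, 1.72 and 2.16 with them. The uninduced rise was 2.36 ± 0.308 (5.13-fold, limma adjusted p = 0.00053) and exceeded the P1 step of 0.26 ± 0.17 by 2.10 ± 0.358 (limma adjusted p = 0.0025). The second probe of Prox1 gave 2.86 for the late step and 2.68 for the difference between the passages. Late induction raised Prox1 by a further 1.28 ± 0.308 (limma adjusted p = 0.025). That call was lost with the slide as a block (1.21, adjusted p = 0.0567), with no filter on dim probes (adjusted p = 0.0552), without the passage 11 arrays (1.21, adjusted p = 0.148) and without late uninduced replicate 2 (1.04), late uninduced replicate 3 (1.28), late induced replicate 1 (1.21) or late induced replicate 3 (1.21), at adjusted p of 0.0576 to 0.0773. The slide block set late induced replicate 3 aside, so its loss and that without this array are the same omission. Late induced CLiPs and P1 induced CLiPs differed by -0.05 (95% interval -0.58 to 0.49).

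**Figure D3:**
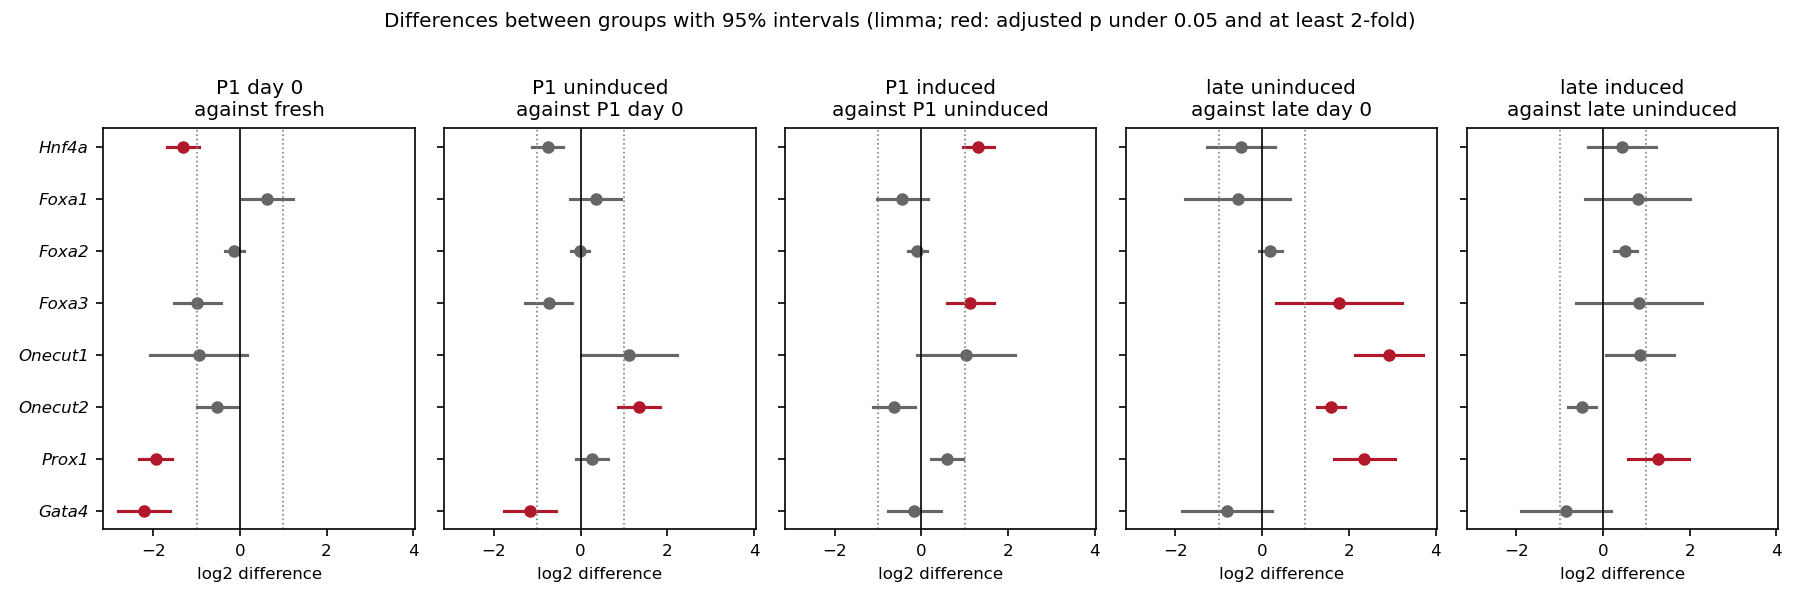
Differences of the 8 factors in the 5 comparisons made within a scanner (log2, points, with 95% intervals as lines; red where the adjusted p was under 0.05 and the change at least 2-fold; dotted lines at 2-fold). Hnf4a, Prox1 and Gata4 are red in the first panel, Hnf4a and Foxa3 on P1 induction, 4 factors in late culture without inducers and Prox1 on late induction. The fresh and P1 arrays compared in the first panel share no slide.

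Gata4 fell on conversion, and no later step raised it. It read -0.03, 0.02 and 0.18 on fresh arrays and -2.18, -2.52 and -1.76 at P1 day 0 (4.64-fold lower, limma adjusted p = 2.1e-05). P1 uninduced CLiPs were at -2.78, -3.42 and -3.77, with the third array not well above background, and P1 induced CLiPs at -3.10, -3.82 and -3.52, none of them well above background. On this scale P1 induced CLiPs were thus at least 11.3-fold lower than fresh hepatocytes (limma adjusted p = 7.3e-07). The size depended on the background correction. With normexp the mean levels were -0.03 in fresh and -2.26 in P1 induced cells, a smaller difference. The call was kept in all 14 alternatives, at differences of -3.73 to -2.16. Among them, the authors' first table holds the values of the main fit up to a constant, so it is no separate check. The fall from P1 day 0 to uninduced, -1.17 ± 0.273 (limma adjusted p = 0.0074), was -0.97 without P1 day-0 replicate 3, -0.94 without P1 uninduced replicate 3, -0.62 with normexp, -0.75 on slide 4 and -2.01 on slide 5. Late levels were -3.87, -3.29 and -2.97 at day 0, -5.02, -3.39 and -4.15 uninduced (the first not well above background) and -5.66, -4.93 and -4.53 induced (none well above background). The second probe of Gata4 was well above background on 1 of the 21 arrays and gives no reading.

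Gata4 is also expressed in liver endothelial, stellate and mesothelial cells, and Prox1 in lymphatic endothelium, so markers of these cells are given beside both. Of 10 endothelial markers, 9 to 10 were well above background on fresh arrays and 3 to 6 on CLiP arrays. Their summed signal, in units of the array's 75th percentile, was 17.4 to 29.7 on fresh and 0.569 to 2.05 on CLiP arrays. Clec4g and Stab2, receptors of sinusoidal endothelium, were at 3.14 and 0.78 on fresh arrays and at -3.89 and -2.08 at P1 day 0. Stellate markers were above background for 5 to 7 of 10 on fresh and 3 to 7 on CLiP arrays, and their sums were 4.34 to 12.2 in fresh cells, 6.83 to 80.5 in P1 CLiPs and 0.297 to 0.67 in late CLiPs. Lrat, which defines resting stellate cells, was above background on 1 fresh array and no CLiP array. None of 6 mesothelial markers was above background on fresh arrays and 2 to 4 were on CLiP arrays (sums of 0.206 to 0.229 against 6.13 to 78.3). The mesothelial list shares Krt19 with the biliary markers, of which 8 of 8 were above background at P1 day 0. Its values are therefore no reading of mesothelial cells alone. Of 5 lymphatic markers 1 was above background on fresh and 1 to 2 on CLiP arrays (0.267 to 0.378 against 0.173 to 43.8), with Lyve1 above background on fresh arrays and Flt4 on CLiP arrays. Lyve1 is also among the 10 endothelial markers, so it is no reading of lymphatic cells alone. Kupffer cell markers were above background for 8 of 8 on fresh and 1 to 4 on CLiP arrays (8.97 to 30 against 2.52 to 22.1). The part of these cells in the fall of Gata4 and Prox1 was not tested, and in such bulk samples fewer cells of a type and less RNA per cell cannot be told apart.

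The 4 genes with a second probe allowed a check of the readings. For Hnf4a, Onecut1 and Prox1 both probes were well above background on every array. Over the 11 comparisons the other probe had the sign of the brighter one in 32 of 33 differences, and in 15 of the 15 that were called. The exception was Hnf4a in the 8-day change between the passages, at 0.27 and -0.05.

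**Figure D4:**
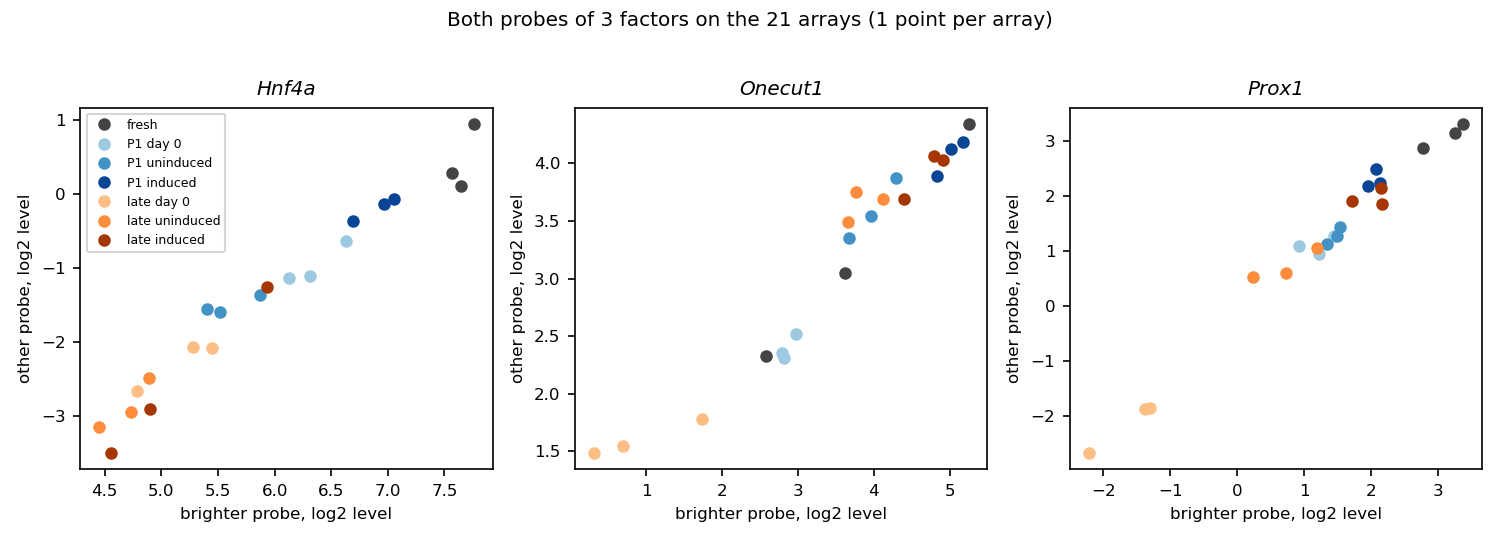
Level of the brighter probe (horizontal) and of the other probe (vertical) of Hnf4a, Onecut1 and Prox1 on the 21 arrays (log2, 1 point per array, coloured by group). In each gene the points run from lower left to upper right, with late day-0 arrays at the low end for Onecut1 and Prox1 and fresh arrays at the high end for Hnf4a and Prox1.

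Across all 7 groups Hnf4a ranked fresh, P1 induced, P1 day 0, P1 uninduced, late day 0, late induced, late uninduced. In the fit of all 21 arrays no neighbours in that order differed by 2-fold, and the arrays of P1 uninduced and late day 0, and of the 3 late groups, overlapped. Foxa3 had the same 4 groups on top, overlapping from fresh to P1 day 0, and then a step of 2.05 ± 0.484 down to late induced (limma adjusted p = 0.0026). Prox1 ran from fresh, over P1 induced and late induced, which did not differ, to late day 0, a final step of 2.36 ± 0.253 (limma adjusted p = 1.6e-06). Onecut1 ran from P1 induced to late day 0, with fresh in the fifth place. The largest step on the brighter probe was the last, of 1.95 ± 0.468 (limma adjusted p = 0.004). That step crosses the scanners, and on the coding probe late day 0 lay -0.78 from P1 day 0, under 2-fold. Onecut2 was highest in late uninduced and lowest in P1 day-0 CLiPs, in steps of at most 0.63. Foxa2 was highest in late induced CLiPs. Gata4 ran from fresh to P1 day 0 in a step of 2.22 ± 0.383 (limma adjusted p = 5.5e-05), with overlapping neighbours from P1 uninduced down. Foxa1 was at 1.38 or more on every fresh and P1 array and stepped down by 1.72 ± 0.426 to late induced (limma adjusted p = 0.0015). Quantile normalization changed the orders of Hnf4a, Foxa2, Onecut2 and Gata4, and put fresh last for Foxa2. Normexp changed those of Onecut2, Prox1 and Gata4. The orders of Foxa1, Foxa3 and Onecut1 were the same under both.

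Over the 21 arrays the genes with the pattern most like Hnf4a were Pdia5 and Pde3b (Pearson r = 0.971 and 0.969, among 15746 genes). For Foxa3 they were Nr5a2 and Apoc1 (0.987 and 0.979), for Prox1 Cfhr2 and C3 (0.969 and 0.967), for Gata4 Lrpprc and Ndufa4 (0.951 and 0.948) and for Onecut1 Eppk1 and Fn1 (0.923 and 0.913). Onecut2 was most like Zfp358 and Vgll4 (0.933 and 0.923), Foxa2 like Numbl and Ccdc28b (0.945 and 0.915) and Foxa1 like B230312C02Rik and Hpcal4 (0.931 and 0.929). Among the factors themselves the highest r was 0.839, between Foxa3 and Hnf4a, followed by 0.823 for Foxa3 with Prox1, and the lowest was -0.667, for Foxa1 with Foxa2. These values describe 21 arrays that share group and scanner.

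Known targets of the factors were followed as lists. Of 23 tested HNF4A targets 21 fell and 1 rose from fresh to P1 day 0, with a median of -7.30 (-6.26 with dim genes at their bound). The apolipoprotein gene Apoc3 changed by -11.85 on the log2 scale, the glucose-6-phosphatase gene G6pc by -9.23, and the protein Z gene Proz by -8.83, the tyrosine aminotransferase gene Tat fell too, and Apoc2 rose by 1.08. P1 induction raised 17 of the 23, with a median of 2.19, led by Apoc3 at 6.82, Proz at 5.46, the coagulation factor IX gene F9 at 5.14 and Apoa4 at 5.03. In late CLiPs 15 of these genes were tested, those well above background on all arrays of at least 1 late group. None of the 15 was called on induction, with a median of 0.42 and the highest values for Proz (3.69, limma adjusted p = 0.099) and G6pc (3.18, adjusted p = 0.07). The induction effect was lower at late passage for 6 of 23 and higher for none, with a median of -1.17. The 23 include genes that passed the filter only through fresh or P1 arrays. A gene near background in late CLiPs can show little change there, so this count is partly set by the filter. The P1 and late counts cover unlike sets of genes.

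FOXA targets, a list that holds Foxa2 itself, fell in 10 and rose in 2 of 14 on conversion (median -3.33). Afp, the fetal albumin-like gene, rose by 9.49, while the cytochrome gene Cyp2c29 changed by -8.01 and Tat fell too. P1 induction raised 8 and lowered 1 of the 14 (median 1.47), with Cps1 of the urea cycle at 3.42, Tdo2 at 2.78 and Afp at -2.97. Of targets of ONECUT factors, PROX1 and GATA4, 9 of 11 fell and 2 rose on conversion (median -3.10), with G6pc at -9.23, osteopontin, Spp1, at 8.66, transthyretin, Ttr, at -3.19 and the nuclear receptor gene Nr5a2 at -2.87, and 6 rose and 1 fell on P1 induction (median 1.01). The 3 target lists share members, Ttr and Pck1 being in all 3. In late culture without inducers 3 of 15 HNF4A targets, 5 of 13 FOXA targets and 2 of 9 of the last list rose, Ttr among them at 2.50 ± 0.34 (limma adjusted p = 0.00066). In the last list 1 gene fell. Late induction lowered Afp by 1.35 and Bmp2 by 2.46 and raised no gene of the 3 lists past the threshold.

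Of 23 other liver transcription factors tested, 19 fell and 1 rose on conversion, with a median of -3.02. Ppara, a fatty acid receptor, changed by -6.22, Creb3l3 by -6.20, the xenobiotic receptor gene Nr1i3 by -6.10 and Cebpa by -5.50. P1 induction raised 14 and lowered 1, with Creb3l3 at 2.92, Ppara at 2.73, the bile acid receptor gene Nr1h4 at 2.58 and Rxra at 2.46. Late induction raised 5 and lowered 1 of 21, with Cebpa at 2.01, Rxra at 1.55, Klf15 at 1.44 and the clock-controlled Dbp at -1.53. Of the biliary and progenitor factors, 11 of 13 rose on conversion, with Klf6 at 3.97, Sox9 at 2.35 and Tead1 at 2.16, and 7 fell and 1 rose on P1 induction, with Foxj1 at -2.14, Grhl2 at -1.55, Sox4 at -1.38 and Elf3 at 1.52. None of 12 was called on late induction.

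Among relatives of the 8 factors, 5 of 9 rose and 2 fell on conversion. Gata6, which can act beside GATA4 in liver development, rose by 1.04 ± 0.168 while Gata4 fell, and Gata5 changed by -1.46 and Foxq1 by -1.34. On induction Foxm1, a factor of dividing cells, fell by 1.75 at P1, and Gata3 fell by 1.94 at late passage, each the single call among the relatives. Of 14 coactivators and corepressors 2 rose and 4 fell on conversion, with Ncoa1 at -1.89, Tle3 at 1.42, Nrip1 at -1.19 and Ncoa2 at -1.13. Zfpm2, which encodes the GATA4 partner FOG2, fell by 2.74 on P1 induction, together with Ppargc1a, a coactivator of HNF4A, which fell by 1.61 and was above background on 2 of 3 induced arrays. None of the 14 was called on late induction. These lists were written from general knowledge, their members are no replicates, and their counts stand beside the shares of all genes given above.

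**Figure D5:**
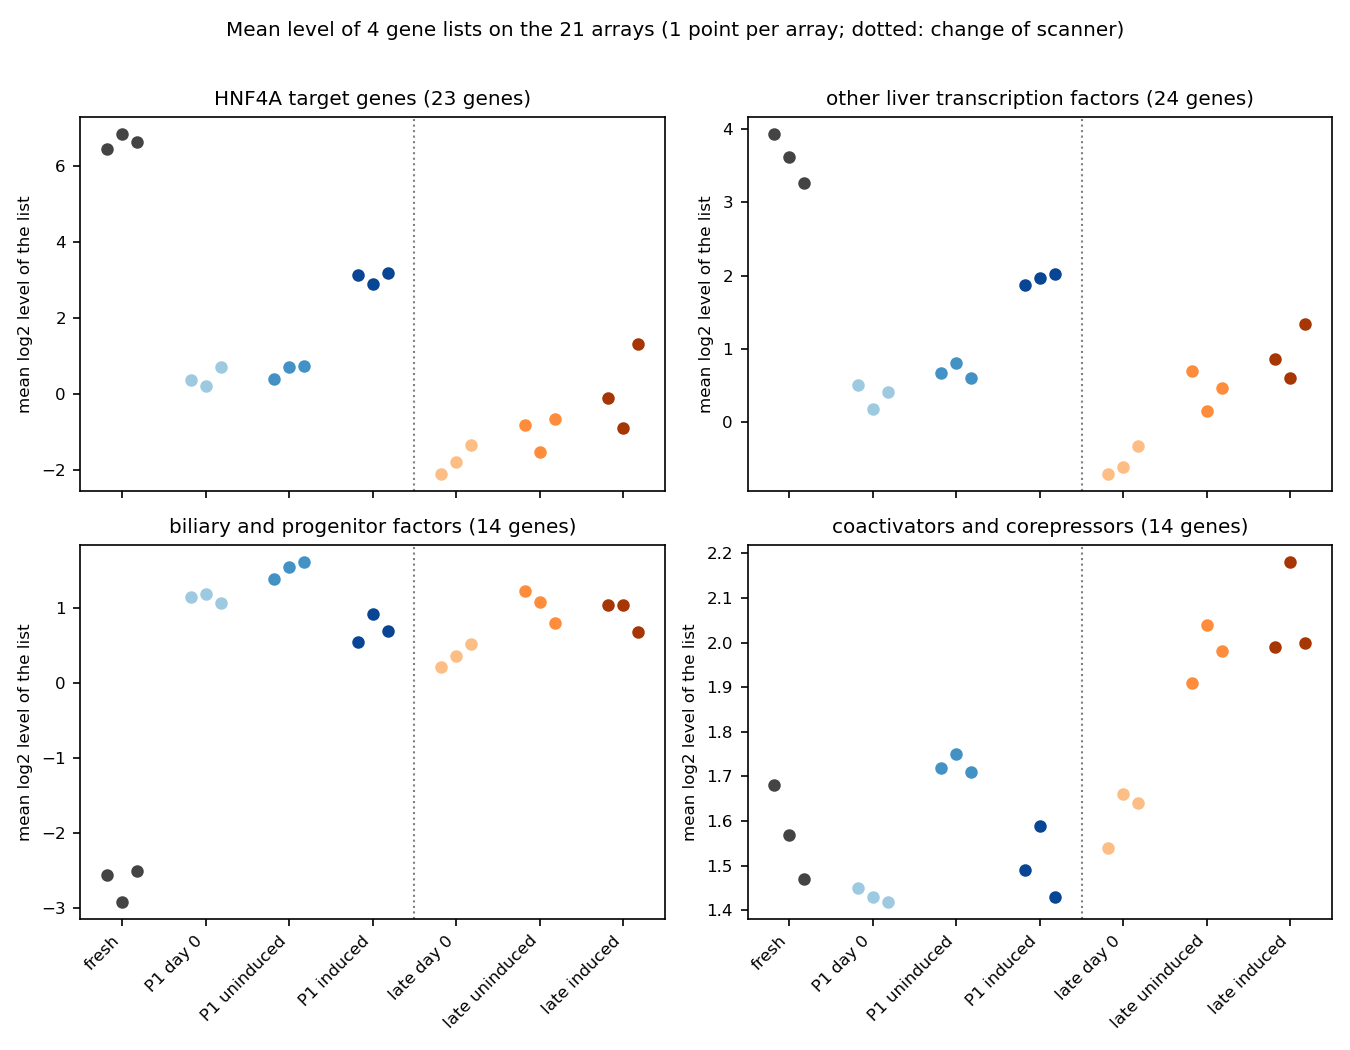
Mean level of 4 gene lists on each array (log2, 1 point per array). HNF4A targets run at 6.46 to 6.83 on fresh, 0.21 to 0.70 on P1 day-0 and 2.89 to 3.19 on P1 induced arrays, and the biliary and progenitor factors are lowest on the fresh arrays, at -2.92 to -2.51.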

How the data were processed

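Total RNA of 21 samples was labelled with Cy3 and hybridised to 1-colour Agilent arrays, per the labels' protocols. The deposited scanner files give the processed signal as an intensity, background-subtracted and not scaled between arrays, per the file headers (Feature Extraction 11.5.1.1 for fresh and P1 arrays, 10.7.3.1 for late arrays). Values in the 2 tables deposited by the authors are on a log2 scale. The first (56605 probes) equals the log2 processed signal minus the array's 75th percentile, up to a constant, within 9.3e-07 for nearly all probes; the other is also centred on each probe's median. Column medians were -3.56 to -3.21 and -0.03 to 0.11. One fresh sample carries a P1 label but is titled fresh and was kept there.

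Control and outlier spots were left out and the brightest of several probes stood for a gene. A gene was tested where its probe was well above background on all arrays of at least 1 group. Group means were fitted with limma 3.58.1 in R 4.3.3 in 3 fits: the 12 fresh and P1 arrays, the 9 late arrays, and all 21 for differences between changes or across scanners. A fold against a group not above background is a minimum on the scale of the levels used here, not under other background corrections. For it, the dim level was raised on each array to that of the faintest probe there that was well above background. The fits were tested on simulated data. Same-numbered samples deviated together between P1 day 0 and uninduced (r of 0.316 to 0.522) and between P1 uninduced and induced (0.202 to 0.36). They did so too among the late groups (0.217 to 0.704), but not between fresh and P1. The same was seen between P1 day 0 and late induced (0.182 to 0.274) and between P1 induced and late induced (0.109 to 0.183). In every P1 group number 1 lay on slide 4 and number 3 on slide 5, and late number 3 was passage 11. The r values therefore do not show that samples were matched. Alternatives were quantile normalization, normexp (offset 50), the mean over probes, no filter, the authors' tables, 1 fit of all arrays, slide and replicate blocks and each array left out. Named genes were the 8 factors, up to 4 called genes of each list with the largest change that were above background on all arrays of both groups (the 2 with the largest change where none was called), marker genes named with a factor, and the 2 genes most correlated with each factor. Exceptions were genes named because a count was small. Some list genes that the rule names are not reported here. The 8 factors, the lists and the rules were chosen with earlier results of these data known. Probe coordinates are mm9, per the file headers. Figures used Python 3.11.15 and matplotlib 3.10.9.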

Additional observations from a re-analysis of the deposited data

Results flagged for a closer look

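Of the differences between the passages, those of Prox1 and Foxa3 were called, and that of Foxa2 had an adjusted p under 0.05 but was under 2-fold. In the 8 days without inducers, Prox1 rose further at late passage than at P1 by 2.10 ± 0.358 on the log2 scale (limma adjusted p = 0.0025), above in 3 of 3 late arrays against day 0, and this kept its call in every alternative run. Foxa3 differed in the same comparison by 2.53 ± 0.684 (limma adjusted p rounding to 0.05), a call that most alternatives ended. The induction difference of Foxa2 was higher at late passage by 0.62 ± 0.146 (limma adjusted p = 0.0067), under 2-fold, with late differences of 0.39 to 0.66 and P1 differences of -0.18 to 0.01 in pairs of the same number. Each is a difference of changes made within a scanner, and passage 11 and 12 samples were pooled in the late groups.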

How the results depend on the processing

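The 21 arrays, 3 to a group, limit the precision, and Gata4 and late Foxa3 lie near background. Of the values recomputed under an alternative, 1230 kept their direction and side of the threshold or moved little. A further 49 lost and 13 gained a call, 22 changed sign and 6 moved, and the cause was not tested. The 1230 include fits of the authors' first table, which holds the values of the main fit up to a constant. For factors with a single probe, the mean of probes has the same levels as the main fit. Neither is a separate check of the size of a difference. With the replicate number as a block, no factor changed its call and the counts of called factors stayed the same (3 of 8 for P1 day 0 against fresh, 1 of 8 for late induction). That block shared each number over all groups of a fit, fresh arrays included. Pairing within P1 alone was not fitted, so its effect on the P1 calls was not tested. The fits without passage 11, of the 9 P1 arrays and within slides were chosen after seeing the data. The authors' tables gave no value across P1 and late arrays, since neither analysed here holds both.

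Counts of called factors moved as follows. For P1 day 0 against fresh the count was 2 with quantile normalization and 3 to 4 with an array left out. For P1 uninduced against day 0 it was 1 with normexp, 3 in the 9 P1 arrays alone and 1 to 2 with an array left out. For P1 induction it was 1 with quantile normalization, 1 with normexp, 1 in the fit of all 21 arrays and 3 in the 9 P1 arrays alone. For P1 induced against fresh it was 1 with the mean of all probes, 3 with normexp and 3 in the fit of all 21 arrays, Onecut1 being the gain (1.21 and 1.19). For late uninduced against day 0 it was 3 with quantile normalization, normexp, the mean of probes, no filter or passage 11 left out, and 3 to 4 with an array left out. Late induction gave 0 with no filter, 0 with the slide as a block and 0 without passage 11, and 0 to 1 with an array left out. The induction effect between passages gave 2 with the slide as a block and 0 to 2 with an array left out. In late induction and in this effect, the slide block sets aside late induced replicate 3, the only array on its slide. For late day 0 against P1 day 0 it was 5 with normexp, 4 with the slide as a block and 4 to 6 with an array left out, and for late induced against P1 induced 4 with normexp. The 8-day change gave 1 with quantile normalization, normexp, the mean of probes or no filter, and 1 to 2 with an array left out. Counts over all genes moved for late day 0 against P1 day 0 (1977 with normexp, 7421 with no filter), late day 0 against fresh (22786 with no filter) and late induced against P1 induced (3249 with normexp, 12773 with no filter).

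Signs turned for small differences. Foxa2 became 0.23 (P1 day 0 against fresh), 0.16 (P1 uninduced against day 0) and 0.1 (P1 induced against fresh) with quantile normalization, and ran from -0.1 to 0.05 in the second with an array left out. Gata4 on P1 induction became 0.11 with normexp and 0.24 with the mean of probes, and ran from -0.38 to 0.11 with an array left out; its 8-day change ran from -0.04 to 0.77. Onecut1's induction effect between passages became 0.02 with quantile normalization and 0.03 with the slide as a block, and that of Foxa3 ran from -0.97 to 0.19 with an array left out. Onecut2 in late day 0 against fresh became 0.22 with quantile normalization and 0.03 with normexp, and ran from -0.49 to 0.02 with an array left out, as did P1 induced against fresh from -0.04 to 0.47. Prox1 in late induced against P1 induced became 0.01 with normexp and ran from -0.12 to 0.1. Calls across the scanners also lapsed for Hnf4a (-0.88 with the slide as a block, -0.99 without late day-0 replicate 1) and Gata4 (-0.82 with normexp, -0.98 with the slide as a block, -1.02 without P1 day-0 replicate 3) between the day-0 groups.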
